A study of Mus musculus with 3 samples.

Results

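Splicing factors and RNA helicases of the mouse kidney were examined as 52 genes of 8 families, taken from 3915 genes measured on all 3 arrays of the series. Members were chosen by platform gene symbol alone (Snrp, Lsm, Sf3, Prpf, Srsf, Hnrnp, Ddx and Dhx, with the older spellings Sfrs and Hnrp), whatever their values. Each array compared, in 2 colours, amplified RNA of cells sorted by fluorescence from HoxB7-GFP transgenic mouse kidneys at 15.5 days post coitum (dpc), with both sexes pooled. The Hoxb7 promoter of that transgene places green fluorescent protein in the ureteric tree, the branching epithelium that forms the collecting ducts. GFP+ cells are thus ureteric, and GFP- cells are all others that carry the same transgene, among them nephron progenitors, stroma, vessels and blood cells. The 3 arrays form 1 group of replicates, and the labels do not say whether separate pools of embryos were used, so the p-values reflect variation among 3 hybridisations that may be wholly technical. Values are log2 ratios, likely of GFP+ over GFP-, a direction that rests on the titles and the channel order because the dyes are not stated. A positive value means higher in GFP+ cells in that direction.

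Introns are cut from pre-mRNA by the spliceosome. Its small nuclear ribonucleoproteins (snRNPs) pair short RNAs with rings of Sm proteins (Snrp genes) or Lsm proteins, the Sf3 proteins hold the branch point in the U2 snRNP, and the Prpf proteins act in the U4/U6.U5 particle and at the catalytic steps. Serine and arginine rich proteins (Srsf) and heterogeneous nuclear ribonucleoproteins (Hnrnp) bind exons and introns and steer the choice of splice sites. DEAD-box (Ddx) and DEAH-box (Dhx) helicases spend ATP to remodel RNA and RNA-protein complexes in splicing, export, translation and ribosome assembly. Many transcripts are known to be spliced differently between cell types, epithelial and mesenchymal cells among them.

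None of the 52 genes differed between the sorted populations past the threshold: by limma with Benjamini-Hochberg adjustment over all 3915 genes, 0 had an adjusted p below 0.05, where 2.78% of all tested genes did (54 higher, 1.38%, and 55 lower, 1.4%). The smallest adjusted p among the members was 0.263 by limma, for Ddx5. At an unadjusted p below 0.05, Hnrnpr was higher and Ddx5 lower, 2 of 52 members beside 14.9% of all tested genes (8.45% higher and 6.41% lower). Means of the members ran from -0.95 for Ddx39b to 0.51 for Lsm8 with a median of 0.0098, beside a median of 0.034 over all tested genes. Positive means numbered 28 and negative means 24. A mean above 0.5 in size was found for 3 members (Ddx39b, Ddx17 and Lsm8), where 12.9% of all tested genes had one. In these bulk samples, fewer cells of a type and less RNA per cell cannot be told apart.

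How small a difference the arrays could show is given by the 95% intervals of the limma fit. Their half-width was 0.45 for the median member, with a range of 0.37 to 1.07 log2 units. For 47 of the 52 members the interval lay wholly within 1 log2 unit of 0, so that a 2-fold difference in either direction was outside it, and this held for 84.2% of all tested genes. The 5 others were Ddx39b (-2.02 to 0.12), Ddx17 (-1.03 to 0.00028), Srsf9 (-1.02 to 0.072), Lsm8 (-0.026 to 1.04) and Sf3b6 (-0.62 to 1.07). Of the 52 intervals, those of Ddx5 and Hnrnpr did not contain 0. Smaller differences of the other members were not shown to be absent.

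**Figure D1:**
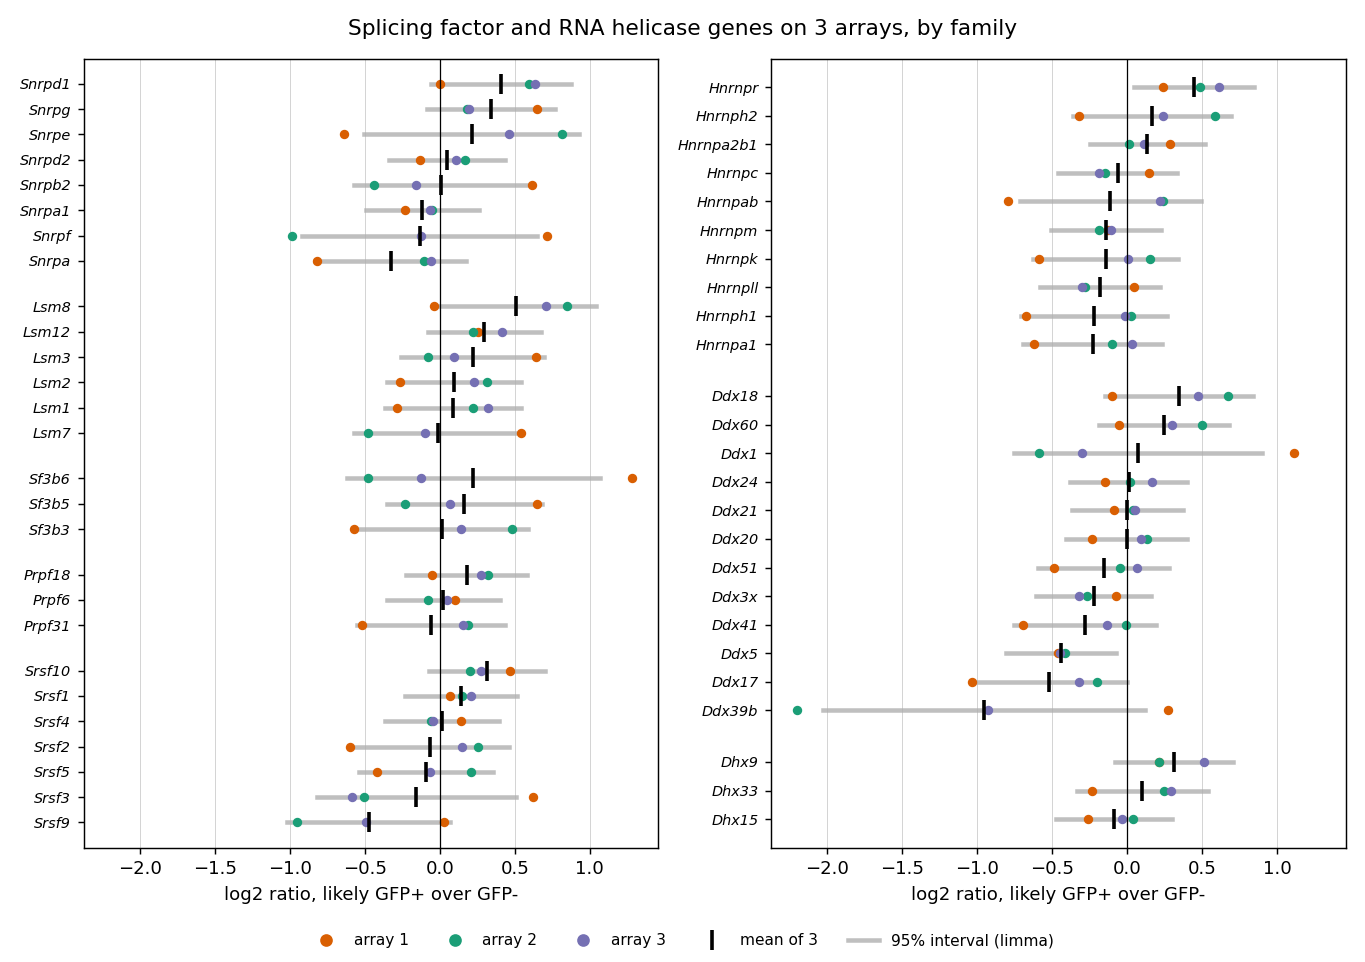
Log2 ratios (x axis, likely GFP+ over GFP-) of the 52 member genes (y axis, ordered by mean within a family) on array 1, array 2 and array 3 (coloured points), with the mean of the 3 (black tick) and its 95% interval from limma (grey bar). The means lie between -0.95 (Ddx39b) and 0.51 (Lsm8), and the 3 points of Ddx5 fall almost on each other whereas those of Ddx39b, Ddx1 and Sf3b6 spread widely.

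A single sign on all 3 arrays was kept by 15 members. Of the 52, 8 were positive throughout (Hnrnpr, Snrpd1, Snrpg, Srsf10, Dhx9, Lsm12, Srsf1 and Hnrnpa2b1), where 20.7% of all tested genes were, and 7 negative throughout (Ddx17, Ddx5, Snrpa, Ddx41, Ddx3x, Hnrnpm and Snrpa1), where 15.3% were. Srsf1 and Ddx3x kept their sign as averages of 2 probes, neither of which kept 1 sign alone. Examples of both signs are the paired helicases Ddx5 and Ddx17 and the RNA-binding proteins Hnrnpr and Srsf10. Their 250 bases before the gene start are printed, from RefSeq on GRCm38.p6, 5′ to 3′ on the gene's strand. They lie at chr11:106789186-106789435 (Ddx5, minus strand), chr15:79546742-79546991 (Ddx17, minus strand), chr4:136310692-136310941 (Hnrnpr, plus strand) and chr4:135855821-135856070 (Srsf10, plus strand). Where RefSeq lists several starts (3 for Ddx5, 2 for Ddx17 and 2 for Hnrnpr), the one listed first was taken. Capitals mark matches, read on either strand, to any of 4 motifs. The first is GGGCGG, the GC box of Sp1-type factors. The second is CCAAT, the box that NF-Y binds. The third is CCGGAA, the core of many ETS factor sites. The last is TATAAA, the box that TBP binds. No match overlaps another in these windows.
Ddx5: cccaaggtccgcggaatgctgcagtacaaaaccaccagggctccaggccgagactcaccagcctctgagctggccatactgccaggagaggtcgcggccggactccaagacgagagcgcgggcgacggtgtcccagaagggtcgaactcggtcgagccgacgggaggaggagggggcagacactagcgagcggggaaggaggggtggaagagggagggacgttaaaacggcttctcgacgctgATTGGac
Ddx17: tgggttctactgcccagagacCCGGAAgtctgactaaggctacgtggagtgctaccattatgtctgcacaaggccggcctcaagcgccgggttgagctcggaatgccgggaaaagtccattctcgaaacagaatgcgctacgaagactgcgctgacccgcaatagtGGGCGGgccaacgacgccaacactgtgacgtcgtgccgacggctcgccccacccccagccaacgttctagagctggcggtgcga
Hnrnpr: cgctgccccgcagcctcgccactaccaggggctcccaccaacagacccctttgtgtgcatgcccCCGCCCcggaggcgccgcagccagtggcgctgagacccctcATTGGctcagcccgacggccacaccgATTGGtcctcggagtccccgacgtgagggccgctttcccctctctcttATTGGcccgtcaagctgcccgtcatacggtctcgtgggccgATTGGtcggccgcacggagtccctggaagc
Srsf10: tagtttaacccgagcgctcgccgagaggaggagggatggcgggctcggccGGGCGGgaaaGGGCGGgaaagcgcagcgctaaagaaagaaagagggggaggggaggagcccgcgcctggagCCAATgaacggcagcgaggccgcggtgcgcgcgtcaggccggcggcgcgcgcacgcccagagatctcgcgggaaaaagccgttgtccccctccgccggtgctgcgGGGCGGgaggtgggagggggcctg
Ddx5 held 1 CCAAT match, just before the start, and Hnrnpr held 4 with 1 GC box. Srsf10 held 3 GC boxes and 1 CCAAT, and Ddx17 1 GC box and 1 ETS core. None of the 4 windows held TATAAA.

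RefSeq windows were matched for 46 of the 52 members. GGGCGG stood in 29 of them (63.0%), beside 59.8% of the 3153 tested genes with a window and 32.9% of all 27025 genes with one. CCGGAA stood in 18 (39.1%), beside 23.9% and 12.2%, and CCAAT in 21 (45.7%), beside 38.1% and 34.5%. TATAAA was found for 5 members, Hnrnpm, Sf3b3, Snrpa, Srsf2 and Srsf3 (10.9%, beside 7.23% and 13.0%). A palindromic element known from housekeeping promoters was found for 0 members (beside 0.92% and 0.407%). The median GC content was 59.8% for members and 59.6% for tested genes. A match describes the letters of a window and is not a binding site, and the arrays measured nothing at these promoters.

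The Sm proteins and the proteins of single snRNPs (Snrp, 8 of 13 genes measured) had a family median of 0.028, with medians of -0.063, 0.061 and 0.026 on arrays 1, 2 and 3. Of the Sm ring, Snrpd1 read 0.0029, 0.59 and 0.63 on the 3 arrays, a mean of 0.41 ± 0.35 (SD, n = 3 arrays) or 1.33-fold (limma adjusted p = 0.409). Snrpg read 0.65, 0.19 and 0.19, a mean of 0.34 ± 0.27. Both were positive on every array, but Snrpd1 was near 0 on array 1 whereas Snrpg was highest there.

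The other ring members did not share 1 pattern. Snrpe read -0.64, 0.82 and 0.46 (mean 0.21 ± 0.76), and Snrpf ran the other way with 0.71, -0.99 and -0.13 (mean -0.13 ± 0.85). Snrpd2, the partner of Snrpd1 in the ring, had a mean of 0.050 ± 0.16 and lay below Snrpd1 on all 3 arrays. Oligonucleotides for Snrpe, Snrpg and other short snRNP genes can pick up near-identical processed copies in the genome, so these values are uncertain.

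Among proteins of single snRNPs, Snrpa, the U1 protein that binds a loop of U1 RNA, was negative throughout with -0.82, -0.11 and -0.056 (mean -0.33 ± 0.43, adjusted p = 0.531 by limma). Array 1 alone carried most of that mean. Snrpb2 and Snrpa1, which bind U2 RNA as a pair, had means of 0.0064 ± 0.54 and -0.11 ± 0.10.

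The Lsm family (6 of 9 genes measured) had the second highest median, 0.16, and positive medians of 0.11, 0.22 and 0.27 on the 3 arrays. Lsm8, the subunit that defines the nuclear Lsm ring on U6 RNA, read -0.035, 0.85 and 0.71, a mean of 0.51 ± 0.47 or 1.42-fold (limma adjusted p = 0.367). It was the highest mean of all members, and it rested on arrays 2 and 3. Lsm1, the subunit that takes its place in the cytoplasmic ring for mRNA decay, read -0.28, 0.23 and 0.32 (mean 0.087 ± 0.33). Lsm8 thus exceeded Lsm1 on every array, by 0.25, 0.62 and 0.39 log2 units.

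Lsm12, which is outside both rings, was among the steadiest positive members with 0.25, 0.22 and 0.42 (mean 0.30 ± 0.10). Lsm2 (0.094 ± 0.31) and Lsm3 (0.22 ± 0.38), subunits of both rings, had positive means but changed sign between arrays. Lsm7, also a subunit of both, had -0.010 ± 0.52, the only negative mean of the family.

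The Sf3 family had 3 of 7 genes measured on all arrays, all of the SF3b complex, and a median of 0.16. Sf3b6, the small subunit that touches the branch point adenosine, read 1.28, -0.48 and -0.13 (mean 0.23 ± 0.93). Sf3b5 followed with 0.65, -0.23 and 0.070 (mean 0.16 ± 0.45), and the large scaffold subunit Sf3b3 ran opposite with -0.57, 0.48 and 0.14 (mean 0.017 ± 0.54). All 3 changed sign between arrays, and the family's array medians of 0.65, -0.23 and 0.070 were those of Sf3b5. Of the Prpf genes, 3 of 10 were measured on all arrays. Prpf18, a factor of the second catalytic step, had a mean of 0.18 ± 0.20. Prpf6, a bridge between the U5 and U4/U6 particles, had 0.025 ± 0.095, and Prpf31, which binds U4 RNA, -0.059 ± 0.40. The Prpf median was 0.025, and each of the 3 genes changed sign between arrays.

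Serine and arginine rich factors were the best covered family, with 7 of 9 genes measured and a median of -0.064. Its array medians were 0.071, 0.15 and -0.042, so the sign of the family level depended on how it was summarised. Srsf10, a splicing repressor that is activated by dephosphorylation, was positive on all arrays with 0.47, 0.20 and 0.28, a mean of 0.32 ± 0.14 or 1.24-fold (limma adjusted p = 0.430). Srsf9 stood at the other end with 0.030, -0.95 and -0.49, a mean of -0.47 ± 0.49 (limma adjusted p = 0.412). Srsf10 exceeded Srsf9 on every array, by 0.44, 1.15 and 0.77 log2 units. Pairs of genes set side by side here were chosen after their values were seen, and their differences were not tested.

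Srsf1, a broad activator of exon inclusion that also binds the exon junction, had 0.14 ± 0.069 over 2 probes. The means of these probes, 0.11 and 0.17, lay close together although they differed by up to 0.88 on array 1, where they read -0.37 and 0.51. A further Srsf1 probe, with a value on array 3 alone and so not averaged, was negative at -0.072. Srsf3, which links splicing to export, read 0.62, -0.51 and -0.58 (mean -0.16 ± 0.67), positive on array 1 alone. Srsf5 had -0.092 ± 0.31, and Srsf4 0.016 ± 0.11.

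The Hnrnp family (10 of 16 genes measured) had the lowest median of gene means, -0.12, with 7 of 10 means negative. Its array medians were -0.22, 0.023 and 0.020, and those on arrays 2 and 3 lay above the Ddx medians. Hnrnpr, which binds U-rich RNA and is known from axonal mRNA transport, was the exception at the top with 0.24, 0.49 and 0.62, a mean of 0.45 ± 0.19 or 1.36-fold (limma adjusted p = 0.283). All 3 arrays were positive. Hnrnpa2b1, a carrier of RNA and reader of splice sites, was also positive throughout, with a mean of 0.14 ± 0.14. Its close relative Hnrnpa1 read -0.62, -0.097 and 0.034 (mean -0.23 ± 0.35) and lay below Hnrnpa2b1 on each array. Hnrnpa1 has many processed copies in the genome, so its signal is uncertain.

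Paralogs of the H group differed in the same way. Hnrnph1 read -0.67, 0.029 and -0.012 (mean -0.22 ± 0.39) and Hnrnph2 read -0.32, 0.58 and 0.24 (mean 0.17 ± 0.46). Hnrnph1 was lower than Hnrnph2 by 0.35, 0.56 and 0.25 log2 units on the 3 arrays, although neither gene passed the test against 0. Hnrnpll, a regulator of Ptprc splicing in lymphocytes, had -0.18 ± 0.20, and Hnrnpm, a known regulator of splicing in epithelial-mesenchymal transition, was steady at -0.14 ± 0.043.

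DEAD-box helicases formed the largest family, with 12 of 29 genes measured and a median of -0.078, and all 3 array medians were below 0 (-0.12, -0.029 and -0.041). Ddx5 and Ddx17, closely related coregulators of transcription and splicing, were both negative throughout. Ddx5 read -0.46, -0.41 and -0.45, a mean of -0.44 ± 0.024 or 1.35-fold lower, with a 95% interval of -0.80 to -0.070 (limma adjusted p = 0.263). These are averages of 2 probes, which read -0.39, -0.71 and -0.43 and -0.52, -0.11 and -0.46. Both probes were negative on every array but differed by up to 0.60 on 1 array, so the SD of the average understates the spread of either probe. Ddx17 read -1.03, -0.20 and -0.32, a mean of -0.52 ± 0.45 (limma adjusted p = 0.336). The pair thus pointed the same way on every array, with Ddx17 furthest from 0 on array 1.

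Ddx39b, the helicase that loads U2 on introns and later hands mRNA to export, had the lowest mean of all members but the widest spread: 0.27, -2.20 and -0.92, or -0.95 ± 1.24 (limma adjusted p = 0.409). Ddx1, of the tRNA ligase complex, read 1.11, -0.59 and -0.30 (mean 0.074 ± 0.91). Ddx18, a nucleolar helicase of ribosome assembly, had the highest Ddx mean, 0.35 ± 0.40, ahead of the antiviral helicase Ddx60 at 0.25 ± 0.28. Both were slightly negative on array 1 and positive on arrays 2 and 3.

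Means near 0 with a small spread were found for the nucleolar Ddx21 (0.0030 ± 0.075), for Ddx24 (0.013 ± 0.16) and for Ddx20, a member of the SMN complex that builds Sm rings (-0.0016 ± 0.20). Ddx3x, a helicase of translation start, had -0.22 ± 0.13, with probe means of -0.29 and -0.16 that differed by up to 0.95 on 1 array. Of the DEAH-box family, 3 of 11 genes were measured on all arrays and the median was 0.10. Dhx9, known as RNA helicase A, read 0.21, 0.22 and 0.52, a mean of 0.31 ± 0.17 (limma adjusted p = 0.441), positive throughout. Dhx33, of rRNA synthesis, had 0.10 ± 0.29 and Dhx15, which takes apart the spliceosome after splicing, -0.085 ± 0.15.

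Families were compared by their medians, without a test, since genes of a family are not replicates. The Lsm median exceeded the Ddx median on all 3 arrays, by 0.23, 0.25 and 0.32 log2 units, a mean of 0.27 ± 0.043. It exceeded the Hnrnp median by 0.33, 0.20 and 0.25 (mean 0.26 ± 0.066) and the Snrp median by 0.17, 0.16 and 0.25 (mean 0.19 ± 0.047). Different genes set the Lsm median on each array, so these small SDs do not describe steady genes. Of the 6 Lsm genes, 5 changed sign between arrays (83.3%, beside 64.1% of all tested genes). With genes of at least 2 values, the Lsm median of gene means was 0.094. The Snrp median lay above the Ddx median by 0.072 ± 0.015, on all 3 arrays. By contrast, the Hnrnp median minus the Ddx median was -0.10, 0.051 and 0.061 on the 3 arrays, a mean of 0.0042 ± 0.090. The order of Sf3 and Ddx changed between arrays too (0.77, -0.20 and 0.11). Taken by role, 15 of 20 snRNP-side genes (Snrp, Lsm, Sf3 and Prpf) had a positive mean, 6 of 17 Srsf and Hnrnp genes and 7 of 15 helicases, where 54.9% of all tested genes did. Of the 20 snRNP-side genes, 15 changed sign between arrays (75.0%, beside 64.1% of all tested genes). Only 3 were positive on all 3 arrays (15.0%, beside 20.7%), and the median of the 20 on array 1 was -0.016. The pairs of families set side by side above were picked after their medians were seen.

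**Figure D2:**
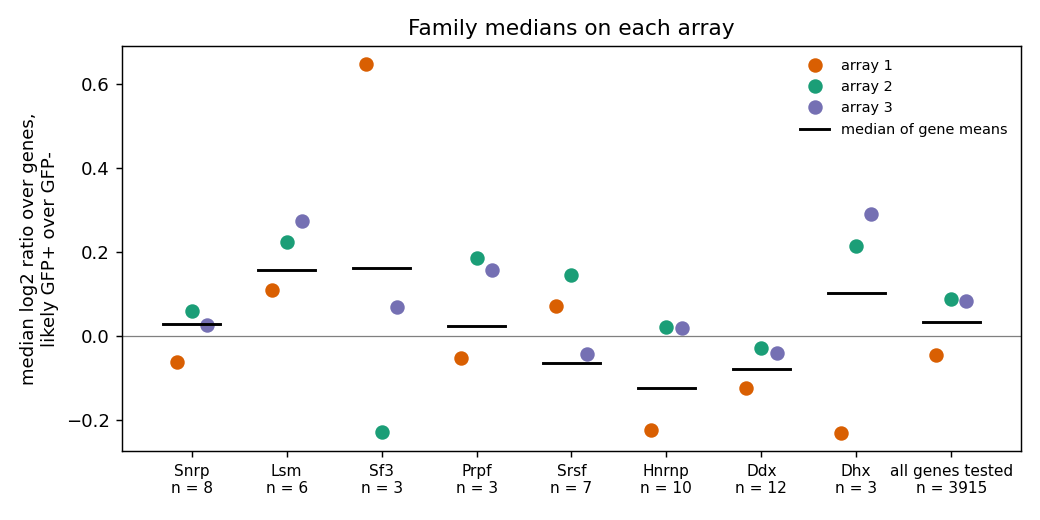
Median log2 ratio over the genes of each family (y axis, likely GFP+ over GFP-) on array 1, array 2 and array 3 (coloured points), with the median of the gene means (black line); n is the number of genes. The Lsm medians (0.11, 0.22 and 0.27) lie above the Ddx medians (-0.12, -0.029 and -0.041) on every array, and the Sf3 and Dhx medians, of 3 genes each, spread most.

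Array 1 stood apart from the other arrays, among the members and among all tested genes. Across the 52 members, which are not independent replicates and share the same 3 hybridisations, array 1 correlated with the mean of arrays 2 and 3 at Pearson's r = -0.28, while arrays 2 and 3 correlated at 0.86. Over all 3915 genes the same values were 0.17 and 0.88. The sign on array 1 opposed that of the mean of arrays 2 and 3 for 35 of 52 members (67.3%), and for 57.8% of all tested genes. Array 1 was higher by over 0.5 log2 units for 10 members (19.2%, beside 19.9% of all tested genes), among them Ddx39b (by 1.83), Sf3b6 (1.59), Ddx1 (1.56), Snrpf (1.27) and Srsf3 (1.17). It was lower by over 0.5 for 17 (32.7%, beside 29.9%), led by Snrpe (by -1.28) and Hnrnpab (-1.02). The part of a difference between hybridisations in these results was not tested.

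Without array 1, 17 of the 52 members (32.7%) passed the threshold by limma, but so did 46.4% of all tested genes (27.5% higher and 18.8% lower). The 10 higher ones were Lsm8, Lsm12, Snrpd1, Snrpe, Prpf18, Hnrnpr, Hnrnph2, Ddx18, Ddx60 and Dhx9, and the 7 lower ones Ddx39b, Ddx1, Ddx3x, Ddx5, Srsf3, Srsf9 and Hnrnpll. Ddx1 turned its sign there, from a mean of 0.074 to -0.45. The smallest adjusted p there was 0.00384 by limma, for Lsm8. Hnrnpr, Snrpd1, Dhx9 and Lsm12 in the first group and Ddx5 and Ddx3x in the second had the same sign on array 1 as well, for Ddx3x as the average of a probe at -0.55 and a probe at 0.40. Without array 2, 0 members passed by limma, beside 3.04% of all tested genes (1.25% higher and 1.79% lower). Without array 3, 0 passed by limma as well, beside 1.89% (0.587% higher and 1.3% lower). At an unadjusted p below 0.05, 1 member was lower by limma in each of these fits, and no share over all genes was computed for that. Weighting the arrays by their fit, which gave array 1 a weight of 0.15 beside 1.55 and 4.3, let 14 members pass as higher and 8 as lower, where 55.4% of all tested genes passed (33.4% higher and 22.0% lower).

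**Figure D3:**
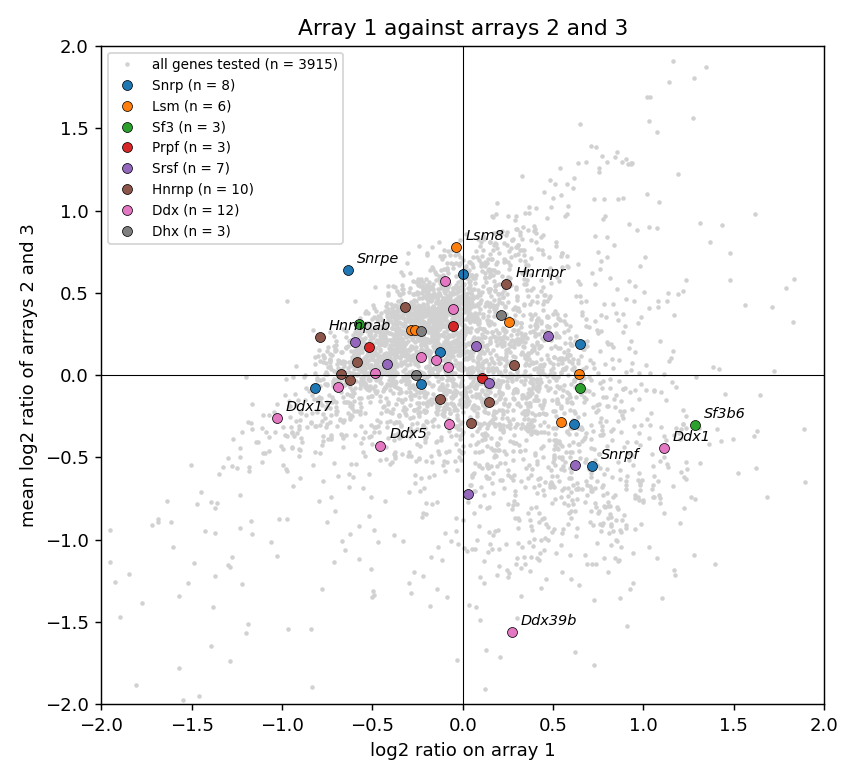
Log2 ratio on array 1 (x axis) against the mean log2 ratio of arrays 2 and 3 (y axis), both likely GFP+ over GFP-, for the members by family (coloured) and all 3915 tested genes (grey); 36 genes lie outside the axes. Members such as Ddx1, Sf3b6 and Snrpf sit in the lower right quadrant and Snrpe in the upper left, while Hnrnpr, Ddx5 and Ddx17 have the same sign on both axes.

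Coverage by family set which genes could be compared. Of the 104 member genes on the array design, 52 had values on all 3 arrays, 8 on 2 arrays, 11 on 1 array and 33 on none, whereas 25.9% of all 15096 genes of the design had values on all 3. The share was highest for Srsf (77.8%) and Lsm (66.7%) and lowest for Dhx (27.3%) and Prpf (30.0%). How the authors filtered values is not stated in those sources, so a missing value says nothing of a gene's level. Among the 8 members with 2 values, none exceeded 1 in size on both arrays, and their values ran from -0.85 to 0.21. All 11 single values came from array 3, and 1 of them exceeded 1 in size: Hnrnpul2 at -1.35, named after its value was seen.

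None of the other listed splicing genes measured on all 3 arrays passed the threshold either, but the balance of signs differed between lists. Over all tested genes 2.78% passed by limma. At an unadjusted p below 0.05, 8.45% of all tested genes were higher and 6.41% lower. Of 74 listed spliceosome proteins outside the families, 40 were measured and 0 passed by limma (4 higher at an unadjusted p below 0.05), with a median of 0.083. The largest means were those of Puf60, a partner of U2AF (-0.72 ± 1.09), Zmat5 of the minor spliceosome (0.53 ± 0.27) and the tri-snRNP cyclophilin Ppih (0.48 ± 0.32). Of 53 listed splicing regulators, 24 were measured and 0 passed by limma (2 lower at an unadjusted p below 0.05), with a median of -0.16. Of the 24 means 4 were positive (16.7%, beside 54.9% of all tested genes), and the list's medians on arrays 1, 2 and 3 were -0.23, -0.10 and -0.042. Mbnl1, a regulator of the fetal to adult switch in splicing, read -0.79, -0.25 and -0.36 (mean -0.47 ± 0.29, limma adjusted p = 0.304). Rbms1 had -0.46 ± 0.82 and Rbm38 -0.43 ± 0.27.

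Among the listed genes measured on 2 arrays alone, 3 had a mean above 1 in size, all on arrays 2 and 3, and they are named after their values were seen. Esrp1, an epithelial splicing regulator, read 2.98 and 3.11, and it passed when genes with at least 2 values were tested (limma adjusted p = 0.00422). In that fit 146 of 4744 genes passed. Array 1, which stood apart from the other arrays, holds no Esrp1 value. The spliceosome proteins Snw1 (-2.07 and -0.98, limma adjusted p = 0.0916) and Ppie (-1.94 and -0.76, limma adjusted p = 0.139) lay on the other side and did not pass. Of 18 listed RNA helicases outside the families, 7 were measured and 0 passed by limma (0 at an unadjusted p below 0.05), with Eif4a1, the translation helicase, at -0.41 ± 0.50, Dicer1, the nuclease that makes miRNAs, at -0.33 ± 1.07, and Eif4a2 at -0.22 ± 0.31. Of 23 genes of the exon junction complex and mRNA export, 11 were measured and 0 passed by limma (0 at an unadjusted p below 0.05). The largest means were those of Gle1 (0.34 ± 0.32), Nxt1 (0.32 ± 0.36) and Rnps1 (-0.30 ± 0.54), which is also in the spliceosome list. For both lists, the shares over all tested genes were 2.78% past the threshold and 14.9% at an unadjusted p below 0.05. Of the 7 helicase means 1 was positive, beside 54.9% of all tested genes.

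For scale, the proliferation list and cell type markers were read from the same fit. Of 24 proliferation genes, 16 were measured and 0 passed by limma (3 lower at an unadjusted p below 0.05, beside 6.41% of all tested genes). Their median was -0.25, with means of -0.64 ± 0.55 for Mki67, -0.52 ± 0.23 for Ccnd2 and -0.50 ± 0.040 for Mcm4. The 5 measured ureteric epithelium markers of 13 all passed with a median of 2.08, and 5 of 6 measured macrophage and leukocyte markers were lower with a median of -1.91. Stromal and cap mesenchyme markers were lower for 3 of 4 and 3 of 6, erythroid markers for 2 of 4, and endothelial markers for 0 of 5 by limma (2 lower at an unadjusted p below 0.05). Over all tested genes 1.38% passed as higher and 1.4% as lower. Marker lists were chosen with earlier results of these data known.

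**Figure D4:**
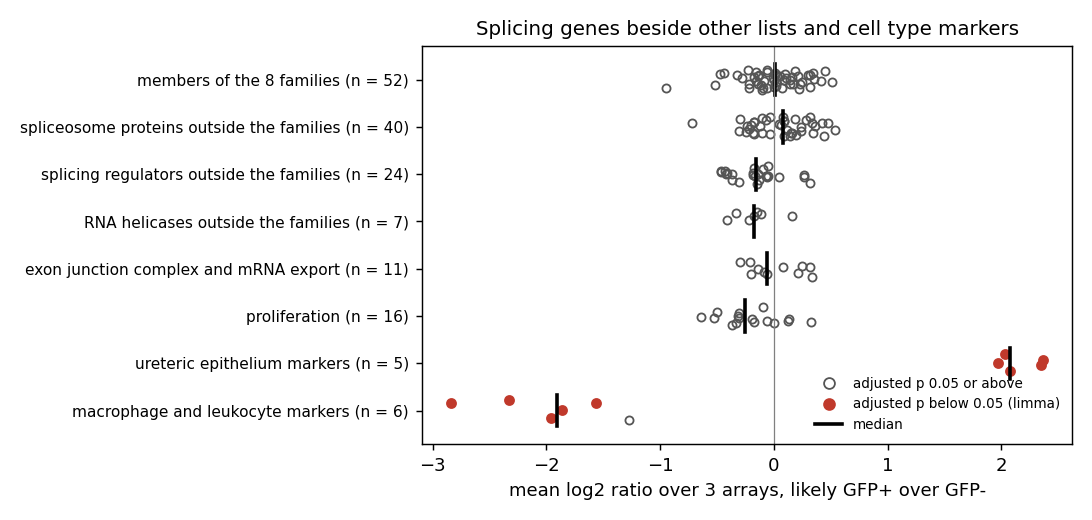
Mean log2 ratio over 3 arrays (x axis, likely GFP+ over GFP-) of single genes (circles) in each list (y axis, with the number of genes measured), filled red where the limma adjusted p is below 0.05, with the median of the list (black line). The 52 members centre on 0.0098 with 0 genes past the threshold, between ureteric markers at a median of 2.08 and macrophage and leukocyte markers at -1.91.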

How the data were processed

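Each of 3 Mouse Compugen oligonucleotide arrays carried amplified, amino allyl labelled RNA of GFP+ cells in channel 1 and of GFP- cells in channel 2, with no dye swap and no common reference, per the labels. The deposited values are log2 ratios. The authors read images with Imagene 5.5, adjusted the control channel by Lowess with 20.0% of points per local fit, raised control values below 10 to 10 and filtered by a rule not given in the sources used here, per the labels. Base 2 was settled from the values: 2 raised to a value was a whole number of thousandths, within 0.01 of a thousandth, for 99.97%. Spot intensities were not used here, which leaves signal over background unknown, and a dye effect of a gene cannot be told apart from a difference between cells.

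Of 17252 probes with 1 symbol in the platform annotation, 16566 had a gene identifier found in RefSeq (GRCm38.p6), whose current symbol was used. The current symbol differed from the platform symbol for 0 member genes. A probe of Lsm5 that also lists another gene had values on all 3 arrays but was left out, so the Lsm counts and medians do not include it. Probes of a gene with values on all 3 arrays were averaged. Then limma 3.58.1 (R 4.3.3) tested whether each mean differed from 0 in either direction, adjusted by Benjamini-Hochberg (threshold 0.05). That step was also run on simulated data, but no outcome is given here. The run was not shown to hold the unequal correlation of these arrays, so it lends no weight to the counts of genes past the threshold. Array medians over the 3915 genes were -0.044, 0.089 and 0.084. Errors are SDs over arrays, whose small number limits the precision. Array weights were estimated gene by gene.

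Named genes are members past the threshold, the 3 highest and 3 lowest of each family (all of 6 or fewer), members above 0.5 in size, the member nearest the threshold, and the 3 of largest size in each other list; any further gene was chosen after its values were seen. Members and lists were chosen with earlier results of these data known. Protein features were not analysed here.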

Additional observations from a re-analysis of the deposited data

How the results depend on the processing

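Counts of members past the threshold were 0 higher and 0 lower under centring, quantile normalization, averaging of arrays 2 and 3, genes with at least 2 values, the largest probe, platform symbols, the ordinary statistic and robust variance. Leaving out 1 array gave 0 to 10 higher and 0 to 7 lower. Array weights (0.15, 1.55 and 4.3, gene by gene) gave 14 higher and 8 lower. Over all 3915 genes, 1815 passed without array 1 and 2170 with weights, against 109 in the main fit. The ordinary statistic passed 1 gene, averaging of arrays 2 and 3 86, platform symbols 109 and the largest probe 110. Centring passed 118, robust variance 123 and quantile normalization 160. With at least 2 values, 146 of 4744 genes passed. Where so few genes passed, 0 of 52 says little about the members. In the lists outside the families the counts, higher then lower, were 0 to 14 and 0 to 9 (spliceosome), 0 to 2 and 0 to 8 (regulators), 0 to 1 and 0 to 2 (helicases), 0 to 4 and 0 to 2 (export) and 0 to 1 and 0 to 6 (proliferation) with 1 array left out, and 15 and 9, 2 and 10, 1 and 4, 4 and 3, and 1 and 7 with array weights. With at least 2 values 1 regulator, Esrp1, was higher.

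Family medians with 1 array left out ran from 0.041 to 0.11 (Snrp), 0.14 to 0.28 (Lsm), 0.012 to 0.17 (Prpf), 0.020 to 0.070 (Srsf), -0.14 to 0.036 (Hnrnp) and -0.13 to -0.030 (Ddx), and the Srsf median was 0.039 with arrays 2 and 3 averaged. The Sf3 median ran from -0.080 to 0.36 and the Dhx median from 0.0069 to 0.27, within their spread between arrays.

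Alternatives were run for all 52 members. With 1 array left out, the means that changed sign ran from -0.45 to 0.41 (Ddx1), -0.069 to 0.11 (Ddx20), -0.022 to 0.046 (Ddx21), -0.064 to 0.094 (Ddx24), -0.27 to 0.011 (Ddx51), -0.15 to 0.0017 (Dhx15), -0.28 to 0.23 (Hnrnpab), -0.17 to 0.00052 (Hnrnpc), -0.34 to 0.0085 (Hnrnph1), -0.040 to 0.41 (Hnrnph2), -0.29 to 0.079 (Hnrnpk), -0.030 to 0.27 (Lsm1), -0.018 to 0.27 (Lsm2), -0.29 to 0.22 (Lsm7), -0.18 to 0.17 (Prpf31), -0.015 to 0.077 (Prpf6), -0.22 to 0.31 (Sf3b3), -0.080 to 0.36 (Sf3b5), -0.30 to 0.58 (Sf3b6), -0.30 to 0.23 (Snrpb2), -0.011 to 0.14 (Snrpd2), -0.089 to 0.64 (Snrpe), -0.56 to 0.29 (Snrpf), -0.22 to 0.20 (Srsf2), -0.54 to 0.058 (Srsf3), -0.048 to 0.051 (Srsf4) and -0.24 to 0.070 (Srsf5). Array weights gave -0.34 for Ddx1, 0.095 for Ddx20, 0.026 for Ddx51, 0.20 for Hnrnpab, 0.029 for Hnrnpk, 0.15 for Prpf31, -0.18 for Sf3b6, -0.21 for Snrpb2, 0.16 for Srsf2 and -0.041 for Srsf4. Centring gave -0.040 for Ddx21, -0.030 for Ddx24, -0.019 for Prpf6, -0.026 for Sf3b3, -0.037 for Snrpb2 and -0.027 for Srsf4. Quantile normalization gave -0.0071 for Sf3b3 and -0.026 for Snrpb2. Averaging arrays 2 and 3 gave -0.019 for Ddx21, -0.027 for Ddx24, -0.0060 for Lsm1, 0.13 for Lsm7, -0.13 for Sf3b3, 0.079 for Snrpf and 0.039 for Srsf3. Ddx1 passed with its sign turned, without array 1 (-0.45, limma adjusted p = 0.0241) and with array weights (-0.34, limma adjusted p = 0.0299), and no other member passed with its sign turned. The cause was not tested. No paired analysis was possible because the arrays form 1 group, beyond the pairing of GFP+ and GFP- within each array that every ratio already holds.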
